A study of Mus musculus with 16 samples.

Results

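The comparison described here is the interaction of transgene and induction in cultured mouse myotubes: how much further each gene moved when doxycycline induced msx2 together with GFP than when it induced GFP alone. It was computed from 12 of the 16 libraries of the series, 3 in each of 4 myotube groups, and for all 19799 rows of the count table that carry a gene symbol. Of these, 16245 passed the filter on low counts and were tested. The cells are pmi28, mouse myoblasts that can fuse into myotubes with many nuclei, in a line with inducible msx2 and GFP transgenes and a line with an inducible GFP transgene only.

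The 4 groups were induced msx2-line myotubes, uninduced msx2-line myotubes, induced GFP-line myotubes and uninduced GFP-line myotubes. All 4 had been differentiated in horse serum, caught on a mesh to separate them from mononucleated cells, recultured with AraC, which kills dividing cells, and then freed of AraC. Induced cultures received doxycycline at 2 µg/ml for 24 hours in growth medium with fetal bovine serum. The medium of the uninduced cultures during that time is not stated in the labels, and what doxycycline, medium and GFP do alike in both lines cancels in the difference. The labels do not say whether a line is 1 clone, which promoter carries the doxycycline response, or whether replicates are separate cultures. P-values therefore rest on the spread between these libraries, part or all of which may be technical.

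Msx2 is a homeodomain transcription factor of the neural crest, limb and skull that mostly represses transcription and binds the DNA core TAATTG. In myogenic cells, Msx proteins are known to hold back differentiation. Myotubes themselves have left the cell cycle, and their genes are run by the MyoD family (Myod1, Myf5, Myog, Myf6) with the MEF2 factors, which act on E-boxes and A/T-rich sites.

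Total counts of the 12 libraries lay between 19784873 and 33092666. On the 1000 most variable genes, principal component 1 took up 77.2% of the variance and set the 3 induced msx2-line libraries (scores of 42.3 to 47.6) apart from the other 9 (-20.3 to -8.40). Component 2, with 5.91%, set the 4 libraries numbered 2 apart from the other 8, and counts are therefore also given without them. Libraries of the same number deviated together within each line, so values from a fit that pairs them are given where they change a call or move a count by over 1.5 times. In bulk RNA, fewer myotubes in a culture and less RNA per myotube cannot be told apart.

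Msx2 RNA was read first, as the check of the labels. It stood at 1344, 1462 and 1514 CPM (read counts relative to the scaled size of the library) in induced msx2-line myotubes, against 12.1, 15.9 and 13.2 CPM in uninduced msx2-line myotubes. The GFP line held 0.803, 1.05 and 1.26 CPM in induced and 1.11, 1.03 and 1.18 CPM in uninduced myotubes. No library went against its label, and the uninduced msx2 line lay above the GFP line in every library (log2 difference 3.62, adjusted p = 3.85e-10). Among all genes, the uninduced lines differed in 10 (0.0616%), Msx2 being higher in the msx2 line (0.00616%) and 9 lower (0.0554%). That count depended on the fit: it was 154 with DESeq2, 264 with a replicate block shared by both lines, 2 with the 12 myotube libraries alone and 2 to 28 when 1 library was left out. The change of Msx2 on induction was 6.71 ± 0.112 (log2 ± SE) in the msx2 line and -0.10 ± 0.196 in the GFP line, a difference of inductions of 6.81 ± 0.234 (adjusted p = 1.46e-10). Reads of the transgene and of the cell's own gene cannot be told apart in these counts.

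Across the genome, the difference of inductions passed an adjusted p of 0.05 in 2914 of 16245 genes, a share of 17.9%. It was positive in 1487 genes (9.15%), where induction raised the gene more or lowered it less in the msx2 line, and negative in 1427 (8.78%). At least 2-fold differences made up 626 of the positive (3.85% of genes tested) and 378 of the negative calls (2.33%). The median difference was 0.86 among positive and -0.65 among negative calls, against -0.01 over all genes tested. Calls in the 2 directions also differed in starting level: the positive ones had a median of 17.1 CPM in uninduced GFP-line myotubes and the negative ones 59.9 CPM, while all genes tested had 17.1 CPM. With same-numbered libraries paired within each line, 5383 of 15968 genes passed (33.7%), 2655 positive (16.6%) and 2728 negative (17.1%), among them 2906 of the 2914. Without the libraries numbered 2 the count was 2831.

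The 2 inductions behind the difference were unequal in extent. In the msx2 line, induction changed 5287 genes (32.5%), 2635 upward (16.2%) and 2652 downward (16.3%). In the GFP line, which shares no library with it, 5 genes (0.0308%) rose by edgeR and 0 fell. DESeq2 called 10, and 164 genes passed 0.05 by edgeR before adjustment. Of the 5 genes, 4 were also called in the msx2 line (80% of the GFP-line list and 0.0757% of the msx2-line list), all 4 in the same direction. The median size of a gene's log2 change was 0.216 in the msx2 line and 0.0531 in the GFP line, and 54.7% of genes changed with the same sign. Across genes, which are not independent replicates, Pearson's r between the 2 inductions was 0.0456. No gene passed the threshold in opposite directions in the 2 lines.

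**Figure D1:**
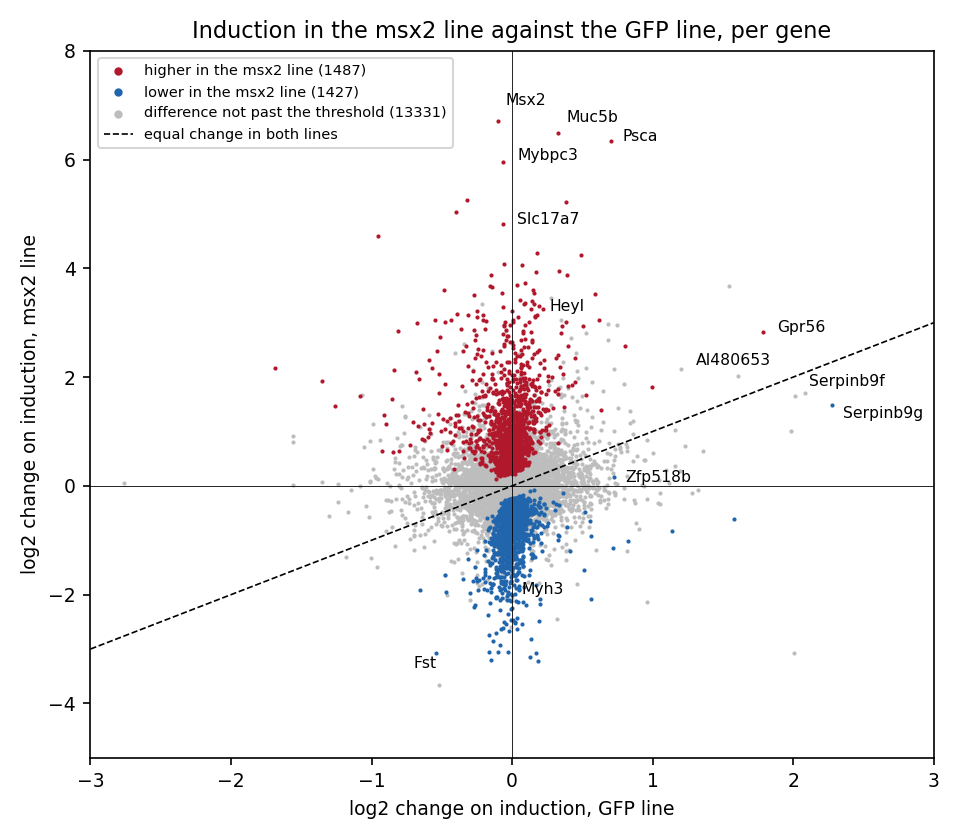
Log2 change on induction in the msx2 line (vertical axis) against that in the GFP line (horizontal axis), 1 point per gene, coloured by the call of the difference between the lines; the dashed line marks equal change. The 2914 called genes spread vertically along a GFP-line change near 0, while Gpr56, AI480653, Serpinb9f and Serpinb9g lie to the right, among the few genes that rose in the GFP line (16244 genes lie within the axes and 1 outside).

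Of the 5 genes that rose on induction of the GFP line, 4 also rose in the msx2 line. Gpr56, an adhesion G protein-coupled receptor, had 149.6, 139 and 116 CPM in induced and 17.4, 17.9 and 21.4 CPM in uninduced msx2-line myotubes, and 67.5, 64.4 and 43.5 CPM in induced and 16.5, 14.2 and 20.0 CPM in uninduced GFP-line myotubes. Induced cultures thus lay above uninduced ones in both lines, without overlap. The log2 change was 2.83 ± 0.171 in the msx2 line and 1.78 ± 0.169 in the GFP line, a difference of 1.04 ± 0.234 (adjusted p = 0.00654; 0.108 with numbers paired, and 0.0345 without the libraries numbered 2). For Serpinb9g, of a family of intracellular serine protease inhibitors, the order turned: 1.50 ± 0.168 in the msx2 line and 2.28 ± 0.179 in the GFP line, a difference of -0.78 ± 0.242 (adjusted p = 0.0365). Its levels were 24.7, 32.7 and 23.3 CPM in induced and 8.88, 10.9 and 8.78 CPM in uninduced msx2-line myotubes, against 24.9, 25.8 and 22.8 CPM in induced and 4.86, 3.73 and 6.44 CPM in uninduced GFP-line myotubes. The induced levels overlapped between the lines while the uninduced ones did not. Leaving out any of 7 single libraries made the Serpinb9g difference miss the threshold, at adjusted p-values of 0.0676 to 0.0909, and so did the block shared by both lines (0.0561) and a fit to the 12 myotube libraries (0.0582). Serpinb9f, parted from it by Serpinb9h (not tested) in the RefSeq order, rose by 1.71 ± 0.217 in the msx2 line and 2.08 ± 0.233 in the GFP line, and AI480653 by 2.02 ± 0.194 and 1.60 ± 0.194. Their differences did not pass (-0.37 ± 0.319, adjusted p = 0.496, and 0.42 ± 0.269, adjusted p = 0.348). For AI480653, 1 induced GFP-line library was low, at 55.8, 59.4 and 29.3 CPM over the replicates. Other Serpinb9 genes of the same run on chromosome 13 went different ways. Serpinb9d and Serpinb9e had GFP-line changes of 0.86 ± 0.168 and 0.84 ± 0.196, short of the threshold, and their differences did not pass (0.33 ± 0.228 and 0.54 ± 0.268). Serpinb9b (1.06 ± 0.211, adjusted p = 0.00284) and Serpinb9 (0.49 ± 0.156, adjusted p = 0.0410) had positive differences, opposite to Serpinb9g, with GFP-line changes of 0.00 ± 0.152 and 0.00 ± 0.112. Serpinb9 genes are close copies of each other, so reads may have been split among them. The genes of this paragraph were named after their values were seen.

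Zfp518b, a zinc finger gene, was the gene called in the GFP line and in the difference but not in the msx2 line. It had 12.6, 13.6 and 12.8 CPM in induced and 11.0, 9.95 and 13.6 CPM in uninduced msx2-line myotubes, and 19.6, 18.7 and 17.3 CPM in induced and 10.3, 11.1 and 12.0 CPM in uninduced GFP-line myotubes. The 3 induced GFP-line libraries lay above all 9 others. Its change was 0.17 ± 0.101 in the msx2 line and 0.73 ± 0.101 in the GFP line, a difference of -0.56 ± 0.143 (adjusted p = 0.0124). The GFP-line rise of Zfp518b fell short of the threshold without any 1 of 4 GFP-line libraries (adjusted p of 0.0635 to 0.0894), and that of AI480653 without either of 2 (0.068 and 0.0764). Without the 4 libraries numbered 2, Serpinb9g alone stayed called in the GFP line. With numbers paired, 26 genes were called in the GFP line, 22 higher and 4 lower, of which 3 (Zfp518b, Serpinb9f and Serpinb9g) belong to the 5.

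**Figure D2:**
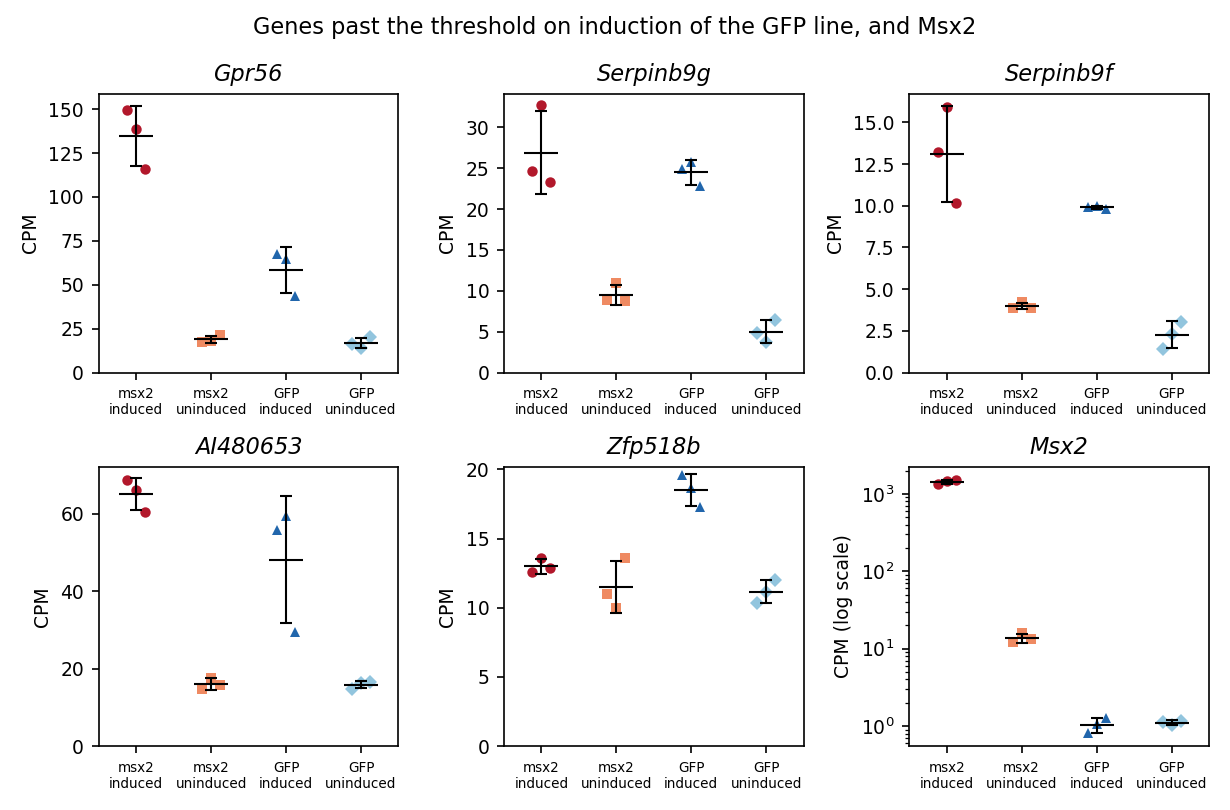
CPM per library of the 5 genes past the threshold on induction of the GFP line, and of Msx2 (log scale), in the 4 myotube groups; bars give mean ± SD (n = 3). Induced libraries of both lines lie above uninduced ones for Gpr56, Serpinb9g, Serpinb9f and AI480653, whereas Zfp518b is high in induced GFP-line libraries and Msx2 in induced msx2-line ones.

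The largest positive differences belonged to genes with little RNA outside induced msx2-line myotubes, under 2 CPM in every other library for 10 of the 12. Genes were taken only if their changes did not overlap between the lines. Much of the separation of induced msx2-line libraries, here and among the largest negative differences, follows from that choice. Muc5b and Muc5ac encode gel-forming mucins of the airway. Muc5b had 21.8, 58.6 and 40.1 CPM in induced and 0.150, 0.604 and 0.498 CPM in uninduced msx2-line myotubes, and 0.945, 0.504 and 0.389 CPM in induced and 0.506, 0.664 and 0.324 CPM in uninduced GFP-line myotubes. Muc5ac had 21.6, 28.5 and 29.4 CPM in induced and 0.799, 0.995 and 0.623 CPM in uninduced msx2-line myotubes, and 0.803, 0.841 and 0.389 CPM in induced and 0.658, 1.81 and 0.294 CPM in uninduced GFP-line myotubes. Every induced msx2-line library lay over 10 times above every other library for both mucins. The difference of inductions was 6.15 ± 0.985 (adjusted p = 0.00131) for Muc5b and 5.44 ± 0.654 (adjusted p = 5.79e-05) for Muc5ac.

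Mybpc3, the heart form of myosin-binding protein C, had 31.9, 26.2 and 36.6 CPM in induced and 0.349, 0.427 and 0.685 CPM in uninduced msx2-line myotubes, against 0.142, 0.420 and 0.195 CPM in induced and 0.152, 0.295 and 0.324 CPM in uninduced GFP-line myotubes. That is a difference of 6.01 ± 0.628 (adjusted p = 1.38e-05). Slc17a7, the vesicular glutamate transporter VGLUT1 of excitatory neurons, was the most abundant gene of this group. Its levels were 283, 179 and 271 CPM in induced and 8.48, 8.67 and 8.87 CPM in uninduced msx2-line myotubes, and 8.69, 5.38 and 5.93 CPM in induced and 8.04, 7.52 and 5.53 CPM in uninduced GFP-line myotubes, giving 4.88 ± 0.291 (adjusted p = 2.76e-07). Uninduced msx2-line libraries overlapped the GFP line for both genes. Psca, a GPI-anchored surface protein, reached 31.4, 25.6 and 21.6 CPM in induced msx2-line myotubes and was at most 0.649 CPM elsewhere (difference 5.65 ± 1.02, adjusted p = 0.00181; 0.0692 without the libraries numbered 2). Crhr2, a receptor for urocortins, reached 37.1, 12.0 and 23.2 CPM and at most 0.716 CPM elsewhere (difference 5.58 ± 0.756, adjusted p = 0.000153).

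Further genes among the 12 largest positive differences lay between 4.83 and 4.00. Asb10, an ankyrin and SOCS box protein, averaged 14.9 ± 3.51 CPM in induced and 0.394 ± 0.0398 CPM in uninduced msx2-line myotubes, and 0.534 ± 0.209 CPM in induced and 0.412 ± 0.0635 CPM in uninduced GFP-line myotubes (SD, n = 3 each). Its difference was 4.83 ± 0.509 (adjusted p = 1.04e-05). Necab3 (4.13 ± 0.381), Ccdc155 (4.10 ± 0.421), D6Ertd527e (4.08 ± 0.283) and Wfdc1 (4.00 ± 0.474) followed. Pth2, Thrsp and Pdzd3 had under 10 reads in at least 1 group and are given as levels only. Pth2, a parathyroid hormone relative, averaged 3.79 CPM in induced and 0.0674 CPM in uninduced msx2-line myotubes, with no read in induced and 0.0687 CPM in uninduced GFP-line myotubes. Without uninduced GFP-line replicate 3 the adjusted p of Pth2 by edgeR was 1.00. Thrsp, a regulator of lipogenesis, averaged 7.64 CPM in induced and 0.309 CPM in uninduced msx2-line myotubes, and 0.105 CPM in induced and 0.213 CPM in uninduced GFP-line myotubes (adjusted p = 0.0519 without uninduced GFP-line replicate 2). Pdzd3 averaged 2.05 and 0.162 CPM in the msx2 line and 0.153 and 0.114 CPM in the GFP line, induced before uninduced, and lost its call under 9 of 21 alternatives.

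The largest negative differences were those of Sln and Pln, small membrane proteins that inhibit the muscle calcium pump. Sln, sarcolipin, had 0.676, 0.158 and 0.961 CPM in induced and 8.19, 2.49 and 6.60 CPM in uninduced msx2-line myotubes, and 13.6, 4.62 and 4.52 CPM in induced and 10.9, 4.35 and 5.06 CPM in uninduced GFP-line myotubes. Pln, phospholamban, had 0.423, 0.394 and 0.213 CPM in induced and 2.99, 2.63 and 3.39 CPM in uninduced msx2-line myotubes, and 5.20, 4.41 and 4.09 CPM in induced and 4.40, 4.02 and 4.15 CPM in uninduced GFP-line myotubes. For both, the 3 induced msx2-line libraries were the lowest of the 12. The difference was -3.40 ± 0.935 for Sln (adjusted p = 0.0265), which missed the threshold in 7 of the 12 fits that leave out 1 library (0.0518 to 0.0622), and -3.26 ± 0.370 for Pln (adjusted p = 1.82e-05).

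Fst, follistatin, which binds and blocks activins and myostatin, fell to 15.7, 21.9 and 32.2 CPM in induced msx2-line myotubes, against 250.4, 167 and 226 CPM in uninduced ones. The GFP line had 351, 264 and 279 CPM in induced and 377, 309 and 307 CPM in uninduced myotubes. The difference was -3.05 ± 0.306 (adjusted p = 2.25e-05). Lrrn1, a leucine-rich repeat membrane protein, was the most abundant of the 12, at 82.2, 95.3 and 193 CPM in induced and 883, 761 and 951 CPM in uninduced msx2-line myotubes, and 966, 885 and 1039 CPM in induced and 862, 827 and 947 CPM in uninduced GFP-line myotubes (difference -2.94 ± 0.340, adjusted p = 6.94e-05). St8sia2, the enzyme that adds polysialic acid to the cell adhesion molecule NCAM, averaged 24.1 ± 8.27 CPM in induced and 153 ± 5.82 CPM in uninduced msx2-line myotubes, and 142 ± 14.6 CPM in induced and 144 ± 12.5 CPM in uninduced GFP-line myotubes (difference -2.64 ± 0.254, adjusted p = 1.40e-05). Ncam1 itself differed by -0.89 ± 0.131 (adjusted p = 0.000180). Ripply1, a repressor of somite segmentation, differed by -3.04 ± 0.417 (adjusted p = 0.000125) and Slc2a6, of the glucose transporter family, by -3.24 ± 0.398 (adjusted p = 9.61e-05). The remaining 5 were Aknad1, Cldn2 (a claudin of leaky tight junctions), Serpinb7, Slc6a19 (a neutral amino acid transporter) and B3galt5 (a galactosyltransferase), at -2.97 to -2.66.

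**Figure D3:**
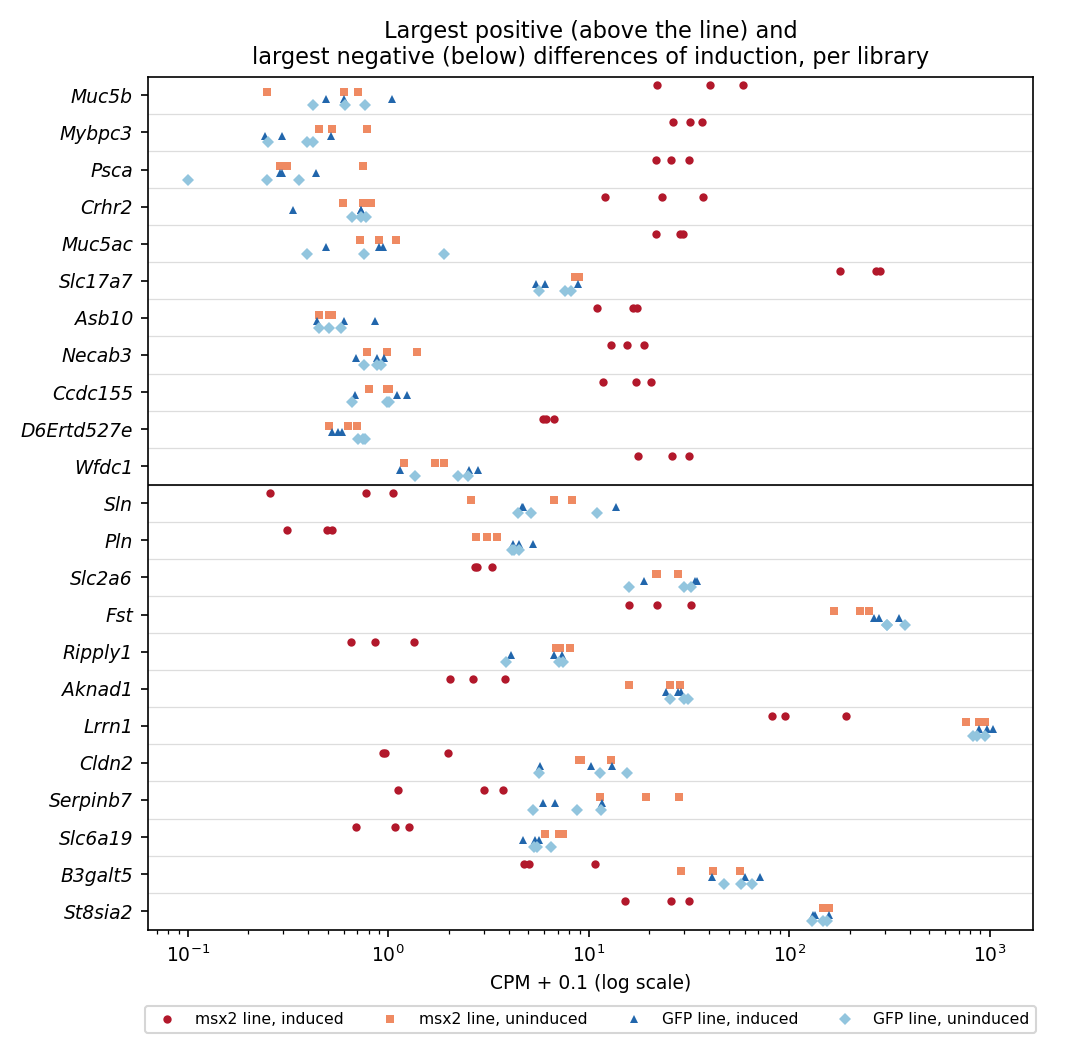
CPM + 0.1 per library on a log axis for genes of the largest positive differences (upper rows) and of the largest negative ones (lower rows), with the 4 myotube groups as separate markers. In each row the 3 induced msx2-line libraries stand apart from the other 9, which follows largely from the rule that picked these genes. Uninduced msx2-line libraries lie below all GFP-line ones for Fst and Pln, for example, and above most of them for Serpinb7.

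Several of these genes are neighbours. On chromosome 7, by the gene order of the RefSeq annotation, Slc17a7, Gfy (not tested), Pth2, Ccdc155 (Kash5 in RefSeq) and Dkkl1 lie next to each other. Dkkl1 averaged 1.33 ± 0.103 CPM in induced and 0.220 ± 0.171 CPM in uninduced msx2-line myotubes, and 0.168 ± 0.0264 CPM in induced and 0.184 ± 0.129 CPM in uninduced GFP-line myotubes, with a difference of 2.62 ± 0.890 (adjusted p = 0.0511). The genes at both ends, Pih1d1 (0.20 ± 0.119) and Tead2 (0.28 ± 0.128), did not pass. Elsewhere on chromosome 7 the mucin genes Muc6, Muc2, Muc5ac and Muc5b are followed by Tollip, an adaptor of Toll-like receptor signalling. Their differences were 1.02 ± 0.454 for Muc6 (adjusted p = 0.143), 2.43 ± 0.446 for Muc2, then those of Muc5ac and Muc5b above, and 1.27 ± 0.135 for Tollip (adjusted p = 1.10e-05). Tollip averaged 273 ± 30.5 CPM in induced and 114 ± 12.5 CPM in uninduced msx2-line myotubes, and 108 ± 9.55 CPM in induced and 109 ± 8.09 CPM in uninduced GFP-line myotubes. Ap2a2 and Brsk2, on either side of that run, did not pass (-0.15 ± 0.0785 and 0.36 ± 0.816). Both runs were noticed after the values were seen.

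Promoter windows of 250 bases before to 50 after the RefSeq start (build GRCm38.p6, while the counts were made on mm9) were at hand, 1 to a gene, for 10231 of the genes tested. They are shown for those of the 3 largest named differences each way that have a window (Mybpc3, Pln and Slc2a6) and for Ripply1, which alone among the windows of the 24 largest differences holds the Msx-type core. Capitals mark the MEF2 core (CTA and TAG with 4 bases between) in Mybpc3, 90 bases before the start, and the homeodomain core TAATTG in Ripply1, 66 bases before it.
Mybpc3 (chr2:91117894-91118193, plus strand): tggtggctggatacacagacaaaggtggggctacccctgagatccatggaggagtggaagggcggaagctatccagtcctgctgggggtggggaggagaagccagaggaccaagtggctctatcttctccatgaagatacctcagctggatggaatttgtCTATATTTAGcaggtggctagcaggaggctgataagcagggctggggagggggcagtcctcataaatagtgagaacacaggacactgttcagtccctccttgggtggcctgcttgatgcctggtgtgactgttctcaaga
Pln (chr10:53337436-53337735, plus strand): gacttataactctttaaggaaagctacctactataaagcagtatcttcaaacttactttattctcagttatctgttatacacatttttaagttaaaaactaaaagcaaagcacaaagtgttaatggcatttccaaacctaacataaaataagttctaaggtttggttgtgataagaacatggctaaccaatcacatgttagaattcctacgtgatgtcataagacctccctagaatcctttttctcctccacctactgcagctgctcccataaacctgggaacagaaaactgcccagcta
Slc2a6 (chr2:27027949-27028248, minus strand): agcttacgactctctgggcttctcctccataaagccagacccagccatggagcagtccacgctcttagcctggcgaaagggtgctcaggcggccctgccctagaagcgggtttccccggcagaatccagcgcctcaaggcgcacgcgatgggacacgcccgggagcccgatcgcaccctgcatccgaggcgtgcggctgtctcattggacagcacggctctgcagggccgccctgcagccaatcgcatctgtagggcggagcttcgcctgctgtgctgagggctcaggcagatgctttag
Ripply1 (chrX:139782304-139782603, minus strand): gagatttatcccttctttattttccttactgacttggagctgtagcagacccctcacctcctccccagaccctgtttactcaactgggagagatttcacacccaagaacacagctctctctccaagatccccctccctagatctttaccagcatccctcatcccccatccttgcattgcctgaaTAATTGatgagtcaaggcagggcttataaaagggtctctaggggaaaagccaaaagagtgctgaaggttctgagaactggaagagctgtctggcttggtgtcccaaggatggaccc
Read on both strands, TAATTG was in 3.20% of the 874 windows of genes with a positive difference, 5.92% of the 828 with a negative one and 5.03% of all 10231. The MEF2 core was in 3.55%, 3.99% and 3.21% in that order, the E-box CANNTG in 64.6%, 64.1% and 65.5%, and CC and GG with 6 bases between, a frame any SRF site has, in 91.4%, 85.6% and 84.3%. The median GC content of the windows was 62.3%, 61.3% and 60% in the same order. The part of base composition in these shares was not tested. A match is a run of letters, not a shown binding site.

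Muscle transcription factors, 26 of 26 tested, had 3 positive and 12 negative calls (4 and 14 with numbers paired) and a median difference of -0.19, against 9.15% positive and 8.78% negative calls over all genes (16.6% and 17.1% with numbers paired). The counts of every list stand against these shares. Myod1 and Myog differed in what they did. Myod1 had 277, 280.2 and 308 CPM in induced and 289.8, 287 and 257 CPM in uninduced msx2-line myotubes, and 293, 266 and 269 CPM in induced and 270.2, 252 and 262 CPM in uninduced GFP-line myotubes. Its groups overlapped, and the difference was -0.03 ± 0.0978 (adjusted p = 0.899; -0.20 and 0.0239 with numbers paired and a GC offset). Myog, which drives terminal differentiation, had 608, 510.4 and 631 CPM in induced and 812, 752 and 757 CPM in uninduced msx2-line myotubes, and 793, 836 and 790.5 CPM in induced and 711, 797 and 766 CPM in uninduced GFP-line myotubes. All 3 induced msx2-line libraries were below the rest (difference -0.50 ± 0.107, adjusted p = 0.00384).

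The other members of the MyoD family lost more. Myf5, the early member, averaged 1.58 ± 0.201 CPM in induced and 6.30 ± 1.32 CPM in uninduced msx2-line myotubes, and 6.99 ± 1.10 CPM in induced and 7.13 ± 0.986 CPM in uninduced GFP-line myotubes (difference -1.95 ± 0.237, adjusted p = 3.58e-05). Myf6, the late member, averaged 2.36 ± 1.17 CPM in induced and 20.2 ± 7.81 CPM in uninduced msx2-line myotubes, and 12.4 ± 3.79 CPM in induced and 18.2 ± 7.03 CPM in uninduced GFP-line myotubes (difference -2.53 ± 0.548, adjusted p = 0.00614), and it was also the member with the largest estimated GFP-line change, -0.54 ± 0.357 (not past the threshold). Mef2c had 408, 433 and 564 CPM in induced and 1280.3, 1076 and 1132 CPM in uninduced msx2-line myotubes, and 1656, 1309 and 1375 CPM in induced and 1872, 1485 and 1406 CPM in uninduced GFP-line myotubes (difference -1.18 ± 0.202, adjusted p = 0.000907). Mef2a went the other way (0.48 ± 0.123, adjusted p = 0.0124), and Mef2b and Mef2d did not pass (0.17 ± 0.185 and 0.15 ± 0.119). Negative calls included the cofactors Eya4 (-1.53 ± 0.168), Eya1 (-1.01 ± 0.155), Vgll2 (-2.46 ± 0.638) and Vgll3 (-0.90 ± 0.119), the E proteins Tcf4 (-0.75 ± 0.112) and Tcf12 (-0.23 ± 0.0716), and Smyd1 (-0.66 ± 0.155). Positive calls were Six5 (1.11 ± 0.302), Nfix (0.78 ± 0.112), the factor of the fetal programme, and Mef2a. The call of Tcf12 was lost under 13 of 22 alternatives. Tcf3 (0.30 ± 0.105), Tead1 (-0.21 ± 0.0824) and Tead4 (-0.18 ± 0.129) did not pass, but did with numbers paired (adjusted p of 0.00165, 0.0158 and 0.0338). Six4, Mkl1, Srf, Eya2 and Hopx lay between -0.18 and 0.20 and did not pass, except that Six4 (0.30) and Srf (-0.23) did with numbers paired and a GC offset.

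**Figure D4:**
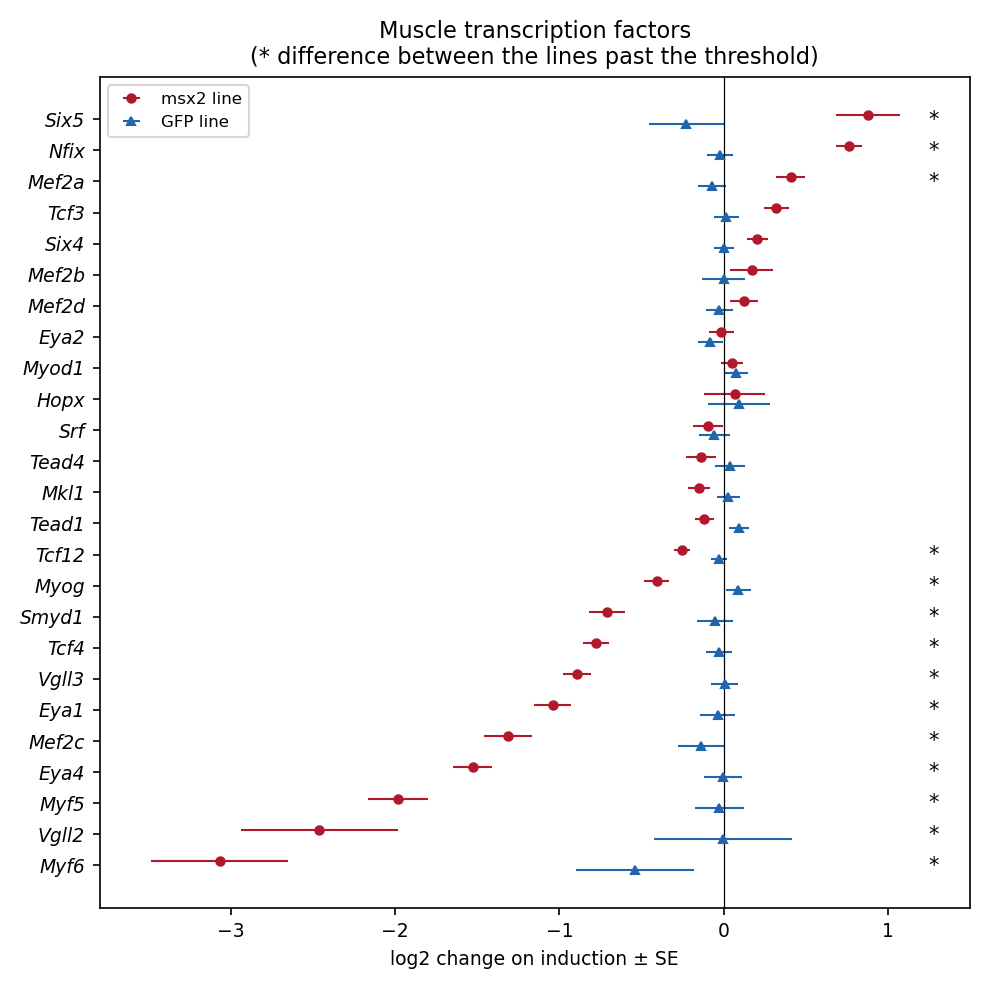
Log2 change on induction ± SE of muscle transcription factors in the msx2 line and in the GFP line, ordered by their difference; asterisks mark differences past the threshold. GFP-line estimates run from -0.54 ± 0.357 for Myf6 to 0.10 ± 0.189 for Hopx, while msx2-line estimates run from -3.07 ± 0.416 for Myf6 to 0.88 ± 0.197 for Six5, with Myod1 near 0 in both.

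Sarcomere genes, 56 tested, had 7 positive and 20 negative calls and a median of -0.17 (19 positive with numbers paired). The summed level of the list was 47004 to 54182 CPM in induced and 69147 to 80825 CPM in uninduced msx2-line myotubes, and 72613 to 83752 CPM in induced and 75499 to 85919.8 CPM in uninduced GFP-line myotubes. Myh3, embryonic myosin heavy chain, had 2171, 1720.0 and 2338 CPM in induced and 8912, 7743 and 8151 CPM in uninduced msx2-line myotubes, and 10331, 8716 and 8867 CPM in induced and 10490.3, 9289 and 8737 CPM in uninduced GFP-line myotubes (difference -1.96 ± 0.152, adjusted p = 7.73e-07). Myl1, the fast alkali light chain, differed by -1.36 ± 0.148, Myh8 by -1.47 ± 0.327, titin (Ttn) by -0.89 ± 0.199, nebulin (Neb) by -0.80 ± 0.195 and Acta1 by -0.51 ± 0.129. Against this direction, Myl2, the slow and ventricular regulatory light chain, had 52.7, 65.0 and 56.1 CPM in induced and 7.89, 9.24 and 9.43 CPM in uninduced msx2-line myotubes, and 5.62, 8.15 and 11.8 CPM in induced and 5.46, 8.11 and 9.98 CPM in uninduced GFP-line myotubes (difference 2.61 ± 0.322, adjusted p = 7.54e-05). The positive calls also held Mybpc3, Myl3 (2.59 ± 0.736) and Tnni3 (2.27 ± 0.563), genes known from slow or heart muscle, beside Mybpc2, a fast-muscle gene, Tpm3 and Trim54.

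Around the sarcomere, calcium handling had 3 positive and 10 negative calls of 28, a median of -0.17, and 6 positive calls with numbers paired. Atp2a1, the fast calcium pump, differed by 0.71 ± 0.178 and Hrc, which binds calcium in the reticulum, by 0.60 ± 0.155, while Asph differed by -1.12 ± 0.148 and the pump inhibitors Sln and Pln had the values above. At the neuromuscular junction 1 of 18 was positive and 5 negative (4 and 9 with numbers paired). Musk, the receptor kinase that clusters acetylcholine receptors, averaged 70.3 ± 9.55 CPM in induced and 199 ± 29.9 CPM in uninduced msx2-line myotubes, and 205 ± 16.3 CPM in induced and 208 ± 18.1 CPM in uninduced GFP-line myotubes (difference -1.48 ± 0.154, adjusted p = 1.10e-05), and Rapsn, which anchors those receptors, had the opposite sign (0.71 ± 0.126, adjusted p = 0.000867). Myoblast fusion genes had 2 positive and 9 negative calls of 29 (4 positive with numbers paired), with Jam2 at -1.92 ± 0.229 and the cadherin Cdh2 at -1.25 ± 0.153, against Bai1, a phosphatidylserine receptor, at 2.51 ± 0.329 and Dock1 at 0.55 ± 0.102. Of 20 genes of the sarcolemma and dystrophin complex 3 were positive and 5 negative (3 and 9 with numbers paired). Dystroglycan (Dag1) differed by 0.69 ± 0.0790 and Nos1 by 1.50 ± 0.209, against Capn3 at -1.24 ± 0.204.

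Patterning and progenitor factors were mixed, with 7 positive and 5 negative calls of 30 tested (8 negative with numbers paired). Tbx1, a T-box factor of the pharyngeal arches, averaged 68.2 ± 10.2 CPM in induced and 14.6 ± 2.90 CPM in uninduced msx2-line myotubes, and 10.6 ± 1.84 CPM in induced and 11.2 ± 2.28 CPM in uninduced GFP-line myotubes (difference 2.31 ± 0.265, adjusted p = 4.32e-05). Sox9, the cartilage regulator, differed by 1.39 ± 0.142 and Pax7, the satellite cell factor, by 1.55 ± 0.286, whereas Tbx15 (-1.41 ± 0.147) and Tbx18 (-1.37 ± 0.149) were negative. In the list of Msx, Dlx and bone genes 5 of 23 were positive, Msx2 itself included, and 3 negative. Alpl, alkaline phosphatase, differed by 2.19 ± 0.287, Dlx3 by 1.26 ± 0.292, Runx1 by -0.32 ± 0.0832 and Sost, a Wnt inhibitor of bone, by -2.54 ± 0.668. Paired numbers gave 7 and 6 calls, and leaving out the libraries numbered 2 gave 3 and 1.

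Notch pathway genes had 9 positive and 2 negative calls of 25 and a median of 0.25 (4 negative with numbers paired). Notch receptors are cut upon binding ligand, and their intracellular part works with Rbpj to switch on the Hes and Hey genes. Among ligands, Dll1 differed by 1.93 ± 0.278 and Jag2 by 1.18 ± 0.127, and the receptor Notch1 by 0.71 ± 0.172. Lfng, which modifies the receptor, differed by 2.23 ± 0.220. Heyl, a target of the pathway, had the smallest adjusted p after Msx2 among the genes named here. It stood at 50.5, 50.8 and 49.6 CPM in induced and 5.34, 5.87 and 6.01 CPM in uninduced msx2-line myotubes, and at 6.71, 7.15 and 7.20 CPM in induced and 5.87, 6.86 and 6.03 CPM in uninduced GFP-line myotubes, with little spread in any group (difference 2.96 ± 0.116, adjusted p = 5.41e-10). Hes6 (-0.67 ± 0.119) and the inhibitor Numb (-0.36 ± 0.0981) were the negative calls.

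Of 44 Wnt pathway genes 10 were positive and 7 negative (11 negative with numbers paired). Wnt11 had 84.8, 59.9 and 67.9 CPM in induced and 10.9, 9.74 and 10.7 CPM in uninduced msx2-line myotubes, and 10.3, 11.1 and 10.2 CPM in induced and 10.3, 10.5 and 11.6 CPM in uninduced GFP-line myotubes (difference 2.80 ± 0.187, adjusted p = 2.39e-07). The ligand Wnt6 differed by 2.62 ± 0.337, the Wnt secretion factor Wls by -0.82 ± 0.0859 and the receptor Fzd7 by -0.74 ± 0.101. In the BMP and TGF-beta pathway, 5 of 59 were positive (8.47%, against 9.15% over all genes) and 10 negative (16.9%, against 8.78%). With numbers paired 12 of 57 were positive (21.1%, against 16.6% over all genes) and 17 negative (29.8%, against 17.1%). Acvr2b, a receptor for activins and myostatin, had 15.5, 15.4 and 15.7 CPM in induced and 2.35, 1.42 and 2.09 CPM in uninduced msx2-line myotubes, and 2.98, 2.77 and 1.80 CPM in induced and 2.33, 3.61 and 1.94 CPM in uninduced GFP-line myotubes. It differed by 3.06 ± 0.324 (adjusted p = 1.10e-05), opposite in sign to Fst, which binds ligands of that receptor. Tgfb2 differed by -1.11 ± 0.116 and the latent binding protein Ltbp3 by 0.47 ± 0.101.

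Growth factor and IGF signalling genes had 13 positive and 5 negative calls of 49 and a median of 0.16 (20 and 13 with numbers paired). Gas6, a ligand of the TAM receptors, averaged 188 ± 31.4 CPM in induced and 26.1 ± 3.84 CPM in uninduced msx2-line myotubes, and 22.1 ± 3.03 CPM in induced and 20.9 ± 4.79 CPM in uninduced GFP-line myotubes (difference 2.78 ± 0.244, adjusted p = 5.73e-06). Pdgfa differed by 1.32 ± 0.139, the receptor Pdgfrb by 1.63 ± 0.220, Pdgfd by -1.29 ± 0.254 and Erbb2 by -0.96 ± 0.157. Among immediate early genes, Spry2 and Spry1, inhibitors of receptor kinase signalling, differed by -1.21 ± 0.116 and -1.14 ± 0.152, and Nr4a1, an orphan nuclear receptor, by 2.13 ± 0.179. Of other inhibitors of that signalling in the list, Dusp5, a phosphatase of ERK, was positive (1.43 ± 0.332, adjusted p = 0.00814), and Spry4, Spred1 and Dusp6 did not pass (-0.40, 0.06 and -0.31). The list had 5 positive and 4 negative calls of 37 (13 and 10 with numbers paired).

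Few genes of the cell cycle itself passed. Genes of dividing cells were measured with wide errors, as for Mki67 (0.72 ± 0.700), Top2a (0.42 ± 0.655), Ccnb1 (0.49 ± 0.561) and Cdk1 (-0.02 ± 0.678). The median SE over all genes tested was 0.164. The low counts therefore do not show that such genes were unchanged. In G2 and mitosis 1 of 60 was positive (Ccnf) and 1 negative (Kif5b, a kinesin motor gene), and 3 and 3 with numbers paired. In S phase 3 of 56 were positive and 2 negative (5 and 6 with numbers paired). The S-phase members Cdc45 (1.21 ± 0.162) and Rrm2 (-1.10 ± 0.173) had opposite signs. Among 29 regulators of the cycle 3 were positive and 4 negative (5 and 9 with numbers paired). Ccnd1, the G1 cyclin, averaged 339 ± 67.1 CPM in induced and 79.7 ± 24.1 CPM in uninduced msx2-line myotubes, and 67.4 ± 4.85 CPM in induced and 71.1 ± 8.96 CPM in uninduced GFP-line myotubes (difference 2.17 ± 0.264, adjusted p = 8.91e-05). Cdkn1c, the p57 inhibitor, had 56.7, 21.1 and 35.3 CPM in induced and 4.64, 4.62 and 4.61 CPM in uninduced msx2-line myotubes, and 3.35, 3.57 and 2.72 CPM in induced and 4.20, 3.50 and 3.41 CPM in uninduced GFP-line myotubes (difference 3.21 ± 0.424, adjusted p = 0.000144). E2f2 differed by 1.63 ± 0.143, Cdk2 by -0.69 ± 0.139 and Skp2 by -0.69 ± 0.150. Among p53 targets and apoptosis genes, 6 of 45 were positive and 7 negative, with Bid at 1.35 ± 0.195 and the death receptor Eda2r at -1.51 ± 0.196.

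The lists of glucose use, muscle energy metabolism and fatty acid synthesis had more positive than negative calls. Slc2a4, the insulin-responsive glucose transporter GLUT4, had 35.3, 30.5 and 33.4 CPM in induced and 5.69, 3.63 and 4.39 CPM in uninduced msx2-line myotubes, and 6.66, 5.21 and 5.35 CPM in induced and 5.92, 5.57 and 6.21 CPM in uninduced GFP-line myotubes (difference 2.91 ± 0.196, adjusted p = 2.39e-07). Its list, with hexokinase Hk2 at 1.00 ± 0.0929, had 11 positive and 5 negative calls of 48 (17 and 12 with numbers paired). Muscle energy metabolism had 10 and 5 of 35 (14 and 8 with numbers paired), led by the fatty acid carrier Fabp3 (1.60 ± 0.104) and Cpt1b, which passes fatty acids into mitochondria (2.43 ± 0.201), against Acadl (-0.52 ± 0.0647). In fatty acid and triglyceride synthesis 11 of 28 were positive and 1, Elovl5, negative, with a median of 0.32 (2 negative with numbers paired and 0 without the libraries numbered 2). Plin4, a lipid droplet coat, averaged 27.7 ± 3.54 CPM in induced and 2.34 ± 0.590 CPM in uninduced msx2-line myotubes, and 1.72 ± 0.503 CPM in induced and 1.77 ± 0.256 CPM in uninduced GFP-line myotubes (difference 3.61 ± 0.316, adjusted p = 2.27e-06), and Dgat2, which makes triglyceride, differed by 1.94 ± 0.164. Adipocyte markers summed to 19.1 to 20.8 CPM in induced and 8.83 to 12.6 CPM in uninduced msx2-line myotubes, and 7.73 to 8.28 CPM in induced and 7.56 to 9.05 CPM in uninduced GFP-line myotubes. Of 5 tested, Cebpa passed, and Adipoq, Fabp4, Plin1, Lep, Cidec and Cfd averaged under 1 CPM in every group. Respiratory chain genes had 4 positive and 0 negative calls of 64 by edgeR, a share of positive calls of 6.25% against 9.15% over all genes. With numbers paired 15 were positive, 23.4% against 16.6% over all genes, so the list lay below the share of all genes in the first fit and above it in the second.

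The amino acid stress response and one-carbon list had 19 negative and 6 positive calls of 46 and a median of -0.31 (27 negative with numbers paired). Psat1, of serine synthesis, averaged 85.7 ± 13.7 CPM in induced and 183 ± 7.78 CPM in uninduced msx2-line myotubes, and 164 ± 12.5 CPM in induced and 166 ± 11.2 CPM in uninduced GFP-line myotubes (difference -1.07 ± 0.134, adjusted p = 4.55e-05). Mthfd2, of mitochondrial folate metabolism, differed by -1.03 ± 0.153, the cystine transporter Slc7a11 by -1.03 ± 0.157, and Asns by -0.67 ± 0.112. Of its 6 positive members, Trib3, a pseudokinase target of ATF4, had 1.48 ± 0.188 and the leucine transporter Slc7a5 0.96 ± 0.149. In the unfolded protein response 5 of 28 were negative and 0 positive by edgeR (16 and 1 with numbers paired), led by the sensors Atf6 (-0.87 ± 0.0905) and Ern1 (-0.65 ± 0.0989). Cytosolic ribosomal proteins had 12 negative and 0 positive calls of 71 by edgeR, a median of -0.22 and small values, such as -0.41 ± 0.0823 for Rps20 and -0.29 ± 0.0684 for Rpl10. Their count was 54 with numbers paired and 4 without the libraries numbered 2. Ribosomal protein genes have many processed copies, and reads may have been split with them.

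Outside the cell, 12 of 64 extracellular matrix genes were positive and 5 negative (20 and 14 with numbers paired). Loxl4, of the collagen-crosslinking lysyl oxidases, had 65.1, 70.6 and 58.4 CPM in induced and 5.94, 8.57 and 7.35 CPM in uninduced msx2-line myotubes, and 6.66, 7.27 and 6.57 CPM in induced and 8.40, 7.71 and 7.65 CPM in uninduced GFP-line myotubes (difference 3.35 ± 0.160, adjusted p = 6.81e-09). Lox, of the same family, had the opposite sign (-1.83 ± 0.282, adjusted p = 0.000547), and so did the laminin chains Lama5 (1.34 ± 0.111) and Lama2 (-0.99 ± 0.180) between them. Matrix proteases had 5 positive and 7 negative calls of 40 (11 and 13 with numbers paired), with Mmp15 at 1.63 ± 0.138 and Adam19 at -1.07 ± 0.155. Of 54 axon guidance and neuronal genes 14 were positive and 5 negative (17 negative with numbers paired and 9 without the libraries numbered 2), with Plxna1 at 1.22 ± 0.0844 and Robo2 at -1.02 ± 0.150. Of 34 potassium channel genes 7 were positive and 3 negative (12 and 7 with numbers paired), with the inward rectifier Kcnj2 at -1.99 ± 0.288. Chromatin modifiers had 12 and 2 of 58 (24 and 7 with numbers paired, and 4 negative without the libraries numbered 2), with the deacetylase Hdac7 at 1.57 ± 0.174. Interferon response genes had 9 and 1 of 44 (11 and 3 with numbers paired), with Rsad2 at 2.59 ± 0.551 and Irf1 at 1.20 ± 0.249 against Ifit2, which was negative (adjusted p = 0.000294). Cytokines and their receptors had 5 and 7 of 44 (10 and 13 with numbers paired), with Il6ra at 2.67 ± 0.240 and Il1b at -2.12 ± 0.347. Atrophy genes had 8 and 5 of 36 (11 and 9 with numbers paired), with the ubiquitin ligases Fbxo32 at 1.10 ± 0.153 and Trim63 at 0.88 ± 0.0954, and cholesterol genes 5 and 3 of 27 (7 and 5 with numbers paired), with Fdft1 at 0.80 ± 0.107 and Cyp51 at -0.54 ± 0.0963.

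Mucins and secretory epithelial genes, a list drawn up with these data in view, had 8 positive and 1 negative call of the 19 tested (33 listed) and a median of 1.02 (5 positive without the libraries numbered 2). Of 30 members in the count table, 14 averaged under 1 CPM in induced and 23 in uninduced msx2-line myotubes, and 24 in each GFP-line group. Some members may thus have passed the filter on low counts through induced msx2-line libraries alone. That can raise the share of positive calls and the median. Beside the mucins and Psca above, the positive members were Muc2, Muc13 (1.15 ± 0.293), Ly6a (1.25 ± 0.359), Cldn4 (2.04 ± 0.670) and Tjp3 (1.45 ± 0.379). The negative member was Cldn2. Epithelial marker genes summed to 28.2 to 36.7 CPM in induced and 25.6 to 38.5 CPM in uninduced msx2-line myotubes, and 18.1 to 29.2 CPM in induced and 19.3 to 29.5 CPM in uninduced GFP-line myotubes. Of their 11 tested members Krt7 and Cldn4 passed (5 positive and 1 negative with numbers paired, 0 without the libraries numbered 2), and of the 14 listed 7 averaged under 1 CPM in induced msx2-line myotubes. The part of epithelial cells in the mucin result was not tested.

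Markers of the labelled cell type were abundant in every library. The 12 myotube markers summed to 20847 to 24348 CPM in induced and 33822 to 39314 CPM in uninduced msx2-line myotubes, and 37299 to 42228 CPM in induced and 38286 to 42913 CPM in uninduced GFP-line myotubes, with 7 negative calls. In the 3 induced msx2-line libraries their sum lay below that of the other 9. With numbers paired the list had 7 negative and 2 positive calls. Without pairing, Ckm (0.41), Des (0.18), Tnnt3 (-0.05), Tnnc2 (-0.05) and Tmem8c (-0.05) did not pass. Fibroblast markers summed to 197 to 505 CPM in induced and 249 to 562 CPM in uninduced msx2-line myotubes, and 341 to 391 CPM in induced and 348 to 381 CPM in uninduced GFP-line myotubes, overlapping between all groups. Leukocyte markers summed to 35.6 to 37.1 CPM in induced and 31.8 to 34.7 CPM in uninduced msx2-line myotubes, and 30.8 to 37.3 CPM in induced and 31.2 to 36.7 CPM in uninduced GFP-line myotubes. In the msx2 line the induced sums lay above the uninduced ones, and both overlapped with the GFP line, and Csf1r, the receptor of macrophage colony-stimulating factor, differed by 3.50 ± 0.434. In 3 more lists, beside the adipocyte markers, the sum in induced msx2-line myotubes stood apart from that of the other 9 libraries. Chondrocyte markers summed to 58.3 to 72.6 CPM in induced and 36.8 to 45.5 CPM in uninduced msx2-line myotubes, and 39.4 to 42.3 CPM in induced and 40.6 to 45.6 CPM in uninduced GFP-line myotubes, with Sox9 and Comp (1.52 ± 0.392) called positive and Acan and Matn3 under 1 CPM in every group. Most of the raised sum was Sox9, with a mean of 43.7 CPM there against 17.1 CPM without induction. Its means in the GFP line were 18.1 CPM (induced) and 18.7 CPM (uninduced). Prg4 went down, from 8.45 to 3.17 CPM. Without pairing, neither the negative estimates (Prg4, Acan, Col2a1, Matn3) nor the positive ones of Col9a1, Col11a2 and Matn1 passed. Pairing gave 4 positive and 1 negative call. Neural markers summed to 3078 to 3289 CPM in induced and 2381 to 2629 CPM in uninduced msx2-line myotubes, and 2067 to 2402 CPM in induced and 2102 to 2589 CPM in uninduced GFP-line myotubes, nearly all of it nestin (Nes), which muscle precursors also express (difference 0.39 ± 0.111, adjusted p = 0.0223). Myoblast markers summed to 531 to 646 CPM in induced and 688 to 809 CPM in uninduced msx2-line myotubes, and 834 to 886 CPM in induced and 829 to 878 CPM in uninduced GFP-line myotubes, with Ncam1 and Myf5 negative and Pax7 positive. The lower sum came from Ncam1, with a mean of 255 CPM in induced and 478 CPM in uninduced msx2-line myotubes. Cdh15 went up there, from 224 to 312 CPM. Its difference did not pass (0.36 ± 0.150), nor did those of Mki67, Top2a, Ccnb1 and Cdk1 (0.72, 0.42, 0.49 and -0.02). The median difference of the list was 0.39. The part of such cells in the results was not tested. Smooth muscle, osteoblast and epithelial sums in induced msx2-line myotubes overlapped with those of both GFP-line groups. Smooth muscle markers had 1 positive and 1 negative call (2 and 2 with numbers paired), and osteoblast markers 1 and 0 (2 and 2). With numbers paired, myoblast and leukocyte markers each had 2 positive calls instead of 1. Neural markers then had 1 negative call instead of 0. Endothelial and pluripotent markers had 0 calls of 8 and 6 by edgeR, also with numbers paired.

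The GC content of the gene moved with the difference of inductions. Of 16131 genes with a value, in 10 groups of equal size, the share of positive calls was 0.867% in the lowest group (up to 41.2% GC) and 19.8% in the highest (from 57.8% GC), and that of negative calls 11.5% and 4.09%. The median difference ran from -0.11 in the lowest to 0.18 in the highest group. The median change in the GFP line stayed between -0.00688 and 0.0046 in all 10 groups, and that in the msx2 line was -0.13 in the lowest and 0.18 in the highest. A fit with numbers paired and an offset for GC content called 5410 genes, 2667 positive and 2743 negative, and kept 2805 of the 2914. In that fit the median difference was 0.010 in the lowest and -0.0027 in the highest group, and lay between -0.0075 and 0.0189 in all 10. The offset takes each library's trend with GC content out, so flat medians are what it is built to give. The share of positive calls was 10.2% in the lowest and 22.3% in the highest group, and that of negative calls 13.8% and 19.3%. These shares differ from the first ones by the pairing as well as by the offset. Shares by GC group with pairing alone are not given, so the part of the offset cannot be read from them.

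Pairing the numbers raises the shares over all genes as well as those of the lists, and for some lists it changes which is higher. Beside the respiratory chain and the BMP and TGF-beta list, the positive share of neuromuscular junction genes was 5.56% without and 22.2% with pairing, and the negative share of extracellular matrix genes 7.81% and 21.9%, below the share of all genes in the first fit and above it in the second. The positive shares of muscle transcription factors (11.5% and 15.4%), of sarcolemma genes (15.0% in both) and of the amino acid list (13.0% and 15.2%) were above it in the first fit and below it in the second. Among marker lists, the positive share of fibroblast markers went from above it (10.0%) to below it (11.1%). The positive share of myotube markers (0% and 16.7%) and the negative share of osteoblast markers (0% and 25.0%) went from below it to above it. For the remaining lists each share lay on the same side in both fits.

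**Figure D5:**
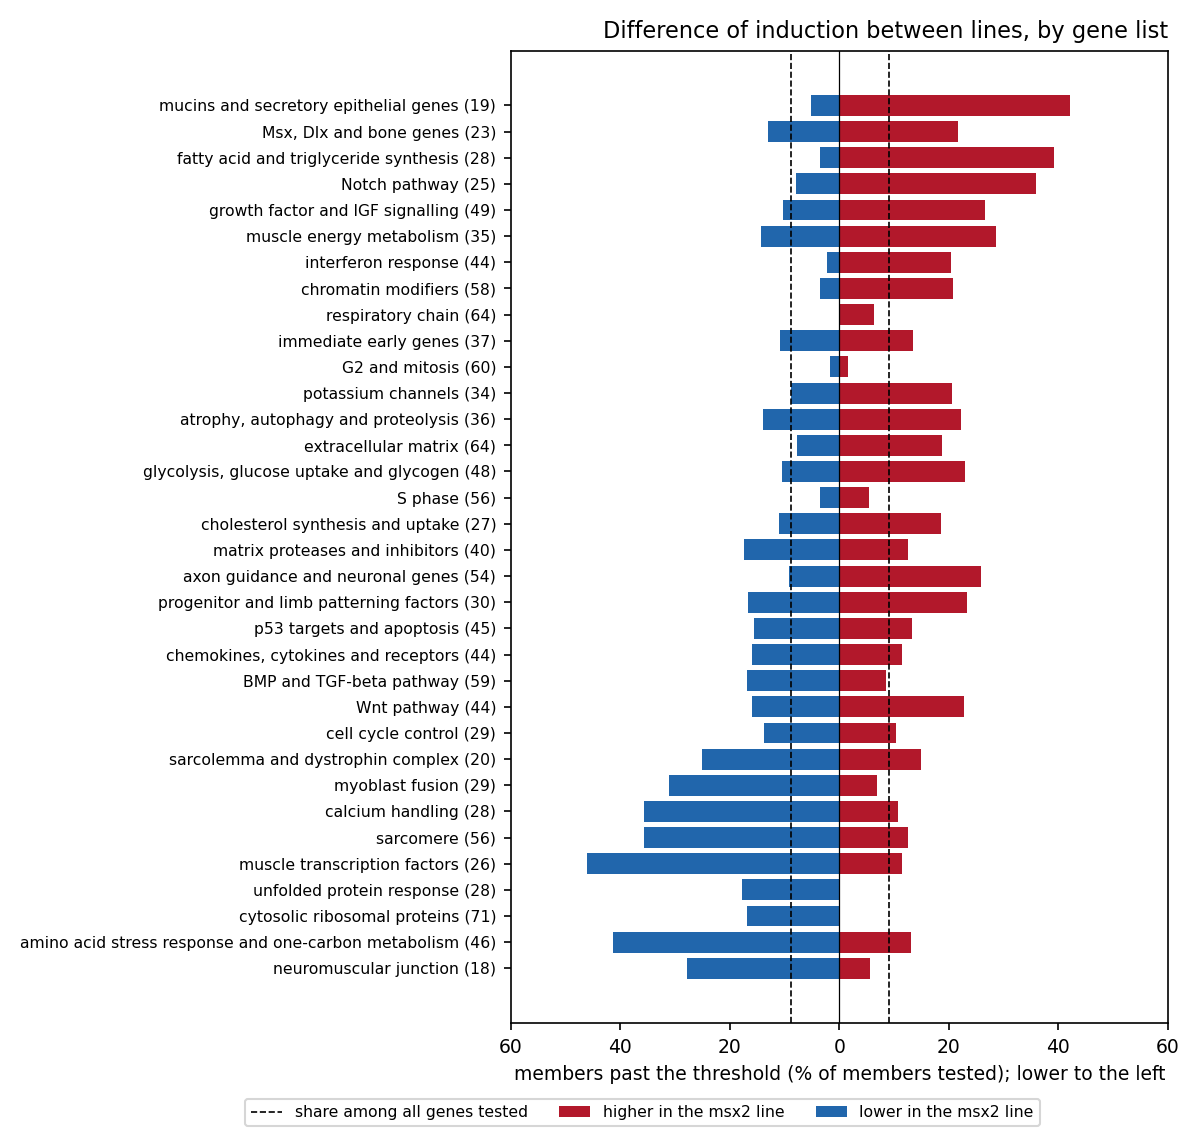
Share of the tested members of 34 gene lists (number tested in brackets) with a positive difference of inductions (right) and a negative one (left), ordered by the list's median; dashed lines give the shares over all genes, 9.15% and 8.78%. Muscle transcription factors and the amino acid list reach furthest to the left, and mucins, fatty acid synthesis and Notch genes furthest to the right. Some mucin list members may have passed the filter on low counts through induced msx2-line libraries alone, which can raise that bar.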

How the data were processed

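The deposited table holds read counts per gene, raw whole numbers for 19866 rows in 16 libraries, and the 67 rows with no symbol, 0.0601 to 0.0878% of counts, take part in nothing. Build mm9 and the tools edgeR 3.6.8, SAMtools 0.1.19 and TopHat2 2.0.11 appear in the submitters' processing notes. The sources used here do not give how reads were counted, with which annotation or strand setting. The kit was a stranded mRNA kit, per the labels' protocols.

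All 16 libraries entered 1 model in edgeR 4.0.16 (R 4.3.3, limma 3.58.1), in which each of the 6 groups had a coefficient, TMM scaling, filterByExpr (minimum count 10) and robust quasi-likelihood F-tests, two-sided, with Benjamini-Hochberg adjustment over all genes in each of 4 comparisons. It was tested on simulated data. Standard errors are unshrunken log2 values over the square root of F. CPM use TMM-scaled library sizes. Counting error alone is covered by depth, since PCR copies are not independent molecules.

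Replicate numbers pair libraries within a line: over genes, deviations from the group means of same-numbered libraries correlated at 0.39, 0.51 and 0.21 in the msx2 line and at 0.36, 0.41 and 0.45 in the GFP line. Between the lines, same-numbered libraries correlated at 0.060 to 0.198 for number 1, 0.214 to 0.306 for number 2 and 0.175 to 0.288 for number 3. The labels do not say what a number shares, so the pairing comes from the data.

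The alternatives tried were scaling by RLE or by upper quartile, no filter on low counts, at least 5 CPM in 3 libraries, a fit to the 12 myotube libraries, DESeq2 1.42.0, both replicate blocks, a GC offset and leaving out each library. Leaving out the libraries numbered 2 was added after seeing the data.

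Members, gene lists and the rule for named genes were chosen with earlier results of these data known. The rule took Msx2, the 12 largest differences each way past the threshold (mean of at least 2 CPM, at least 10 reads in each group, no overlap of the lines' changes, no predicted genes), genes with fewer reads as levels, genes called in the GFP line but not the msx2 line, up to 2 genes each way per list by adjusted p, and every muscle transcription factor. Other names were chosen after their values were seen. Some genes that the rule takes are not reported here. Of 19799 symbols, 18366 matched RefSeq (GRCm38.p6) directly and 1333 by an older symbol.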

Additional observations from a re-analysis of the deposited data

Results flagged for a closer look

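The difference of inductions between the lines was itself tested and passed in 2914 genes. Among the genes that induction raised in the GFP line, it passed for Gpr56 (1.04), Serpinb9g (-0.78) and Zfp518b (-0.56). The call of Gpr56 was lost with numbers paired and that of Serpinb9g without any of 7 single libraries, with the shared block and with the 12 myotube libraries alone. In myoblasts, which enter none of the comparisons, Msx2 averaged 16.6 CPM in the uninduced msx2 line and 1.43 CPM in the GFP line (n = 2 each).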

How the results depend on the processing

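The count of 2914 genes ranged from 2473 to 4150 under scaling, filters, the 12 myotube libraries alone, DESeq2 and the block shared by both lines, and from 2445 to 3084 when 1 library was left out. Within those fits that leave out 1 library, positive calls numbered 1274 to 1577, negative calls 1168 to 1522 and msx2-line calls 4417 to 5227. The replicate block within each line, which pairs the numbers, gave 5383 calls, 2655 positive and 2728 negative. With the GC offset it gave 5410, 2667 positive and 2743 negative. Positive calls made up 47.9 to 53.3% under every setting run. The 5 calls of the GFP line became 10 with DESeq2, 8 with the shared block, 26 with the block within each line, with or without the GC offset, 3 to 7 without 1 library and 1 without the libraries numbered 2. The 10 genes that differed between the uninduced lines became 20 without a filter, 2 with the myotube libraries alone, 154 with DESeq2, 264 with the shared block, 2 without the libraries numbered 2 and 2 to 28 without 1 library. The block within each line gives no such count. The cause of these shifts was not tested. Of the genes taken by the rule for named genes, 147 of 166 kept their side of the threshold in every setting run. None of them changed sign while called. Tcf12, Cbx3, Elovl5, E2f8, Ugp2, Ccnf, Sln, Pdzd3, Pth2, Thrsp, Psca, Runx1 and Sema6a lost their call in at least 1 setting. Genes named after their values were seen are outside this count. Among those, Gpr56, Serpinb9g, Krt7 and Cldn4 each lost the call in at least 1 setting. Genes with under 1 CPM outside induced msx2-line myotubes rest on few reads, which limits the precision of their differences.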
